A study of Mus musculus with 4 samples.

Results

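The interferon regulatory factors (IRFs) described here were *Irf1*, *Irf2*, *Irf3*, *Irf4*, *Irf5*, *Irf7*, *Irf8*, and *Irf9*, which are 8 of 21887 protein-coding genes in the mouse gene table. They were chosen by name. H3K27ac is a histone acetylation that marks promoters and enhancers in use. Its peaks were counted in the body of each gene and 10 kb to either side. A peak within 1 kb of either end of the gene was called a gene-end peak, and any other peak in that window was called distal.

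The data were 2 ChIP-Seq libraries, called replicates 2 and 3, from mouse liver sinusoidal endothelial cells (LSECs). Each had an input library, which was not analysed here on its own. Both libraries belong to 1 condition, and the sample records give no genotype, treatment, age, or sex, and do not say whether they came from separate mice. The general isolation methods describe mouse LSECs as purified with anti-CD146 beads, plated on type I collagen, and cultured for 4 hours. The ChIP-Seq methods state that LSECs were isolated and cross-linked and mention no culture, so whether these cells were cultured is not known. Several mouse lines appear in the methods, among them Col4a1 fl/wt and dCas9-KRAB mice with the endothelial, tamoxifen-inducible Cdh5CreERT2, and the records do not tie either library to any of them.

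The list of replicate 2 held 26975 peaks and that of replicate 3 held 64498, and the number of reads behind each was not known. No comparison between conditions and no test was therefore possible, and every result below is a description. The fold enrichment of a peak is its signal over background as given by the authors' peak caller. Its scale differed between the lists, reaching 72.0 in replicate 2 and 219 in replicate 3, so each peak was also given as a percentile among all peaks of its own library. A region was called shared when it held peaks of both libraries that overlapped by at least 1 bp.

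Because *Irf4*, *Irf5*, and *Irf8* are best known from blood cells, the cell type was checked with marker genes. All 17 LSEC markers had a gene-end peak in replicate 3 (53.9% of all genes), and 13 had a shared gene-end region (44.1% of all genes). The other 4 had gene-end peaks in replicate 3 only. Their fold enrichments were 5.86 at *Stab2* (percentile 27.6), 10.0 at *Tek* (54.4), 4.56 at *Clec4g* (11.3), and 4.15 at *Mrc1* (6.14). The 4 genes that mark all leukocytes (*Ptprc*, *Coro1a*, *Laptm5*, and *Cd53*) had no gene-end peak in either library. Shared gene-end regions were found at 2 of 10 Kupffer cell and macrophage markers (*Cd68* and *Spi1*), 1 of 7 B and plasma cell markers (*Cd79a*), and 2 of 6 dendritic cell markers (*Xcr1* and *Batf3*). These shares lay below the 44.1% of all genes, with that of the small dendritic cell list (33.3%) the nearest to it. The regions at *Cd68*, *Cd79a*, and *Xcr1* also lay within 1 kb of an end of a neighbouring gene (*Eif4a1*, *Arhgef1*, and *Fyco1*, respectively). Those at *Spi1* and *Batf3* did not. *Spi1* had 12.8 in replicate 2 and 52.1 in replicate 3 (percentile 92.1). Among the LSEC markers, only *Kdr* was higher in replicate 3 (60.3), and *Kdr*, *Cdh5*, *Pecam1*, and *Lyve1* were higher in replicate 2. The median percentile in replicate 3 was 68.1 over the LSEC markers, compared with 87.6 over all genes with a gene-end peak. None of the 7 T cell, 6 hepatocyte, or 6 hepatic stellate cell markers had a shared gene-end region, although replicate 3 alone had a gene-end peak at 3, 1, and 1 of them. Replicate 3 alone also had gene-end peaks at 2 dendritic cell markers and 1 B and plasma cell marker. Distal regions set the LSEC markers apart less from the T cell and the B and plasma cell markers. Shared distal regions were found at 16 of 17 LSEC markers, 4 of 7 T cell, 3 of 6 dendritic cell, 3 of 7 B and plasma cell, and 2 of 10 Kupffer cell and macrophage markers, compared with 39.3% of all genes. Shared distal regions were also found at 16.7% of hepatocyte markers (*Alb* only) and at none of the hepatic stellate cell markers. Of the 4 leukocyte genes, *Coro1a* had 3 shared distal regions and the others had none. The part of other cells in the peaks at the IRF genes was not tested.

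IRFs bind DNA through a conserved N-terminal domain and recognize repeats of the core GAAA, as in the interferon-stimulated response element (ISRE). IRF3, IRF5, and IRF7 are activated downstream of pattern recognition receptors and switch on interferon and cytokine genes, whereas IRF9 acts in the response of cells to type I interferon. IRF1 and IRF2 compete for the same elements as activator and repressor, and IRF4 and IRF8 act largely in blood cells, often with the ETS factor PU.1 at ETS-IRF composite elements (EICEs).

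All 8 IRF genes had a gene-end peak in replicate 3, and 53.9% of all protein-coding genes did. In replicate 2, 5 of the 8 had one, compared with 43.4% of all genes. A shared gene-end region was found at *Irf1*, *Irf2*, *Irf3*, *Irf8*, and *Irf9*, or 5 of 8, compared with 44.1% of all genes. *Irf4*, *Irf5*, and *Irf7* had peaks in replicate 3 only. Across the 8 windows there were 17 peaks in replicate 2 and 40 in replicate 3, which formed 41 regions. Of these, 16 were shared, 24 were found in replicate 3 only, and 1 was found in replicate 2 only. This split was near that of the whole lists. There, 37.7% of replicate 3 peaks overlapped a replicate 2 peak, and 99.2% of replicate 2 peaks overlapped a replicate 3 peak.

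Shared distal regions were found at 3 of 8 members (*Irf1*, *Irf2*, and *Irf8*), a share near the 39.3% of all genes. Of the 10 such regions, 7 lay at *Irf2*, whose window is by far the longest. Distal peaks were found at 3 of 8 members in replicate 2 (40.1% of all genes) and at 6 of 8 in replicate 3 (60.6% of all genes).

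**Figure D1:**
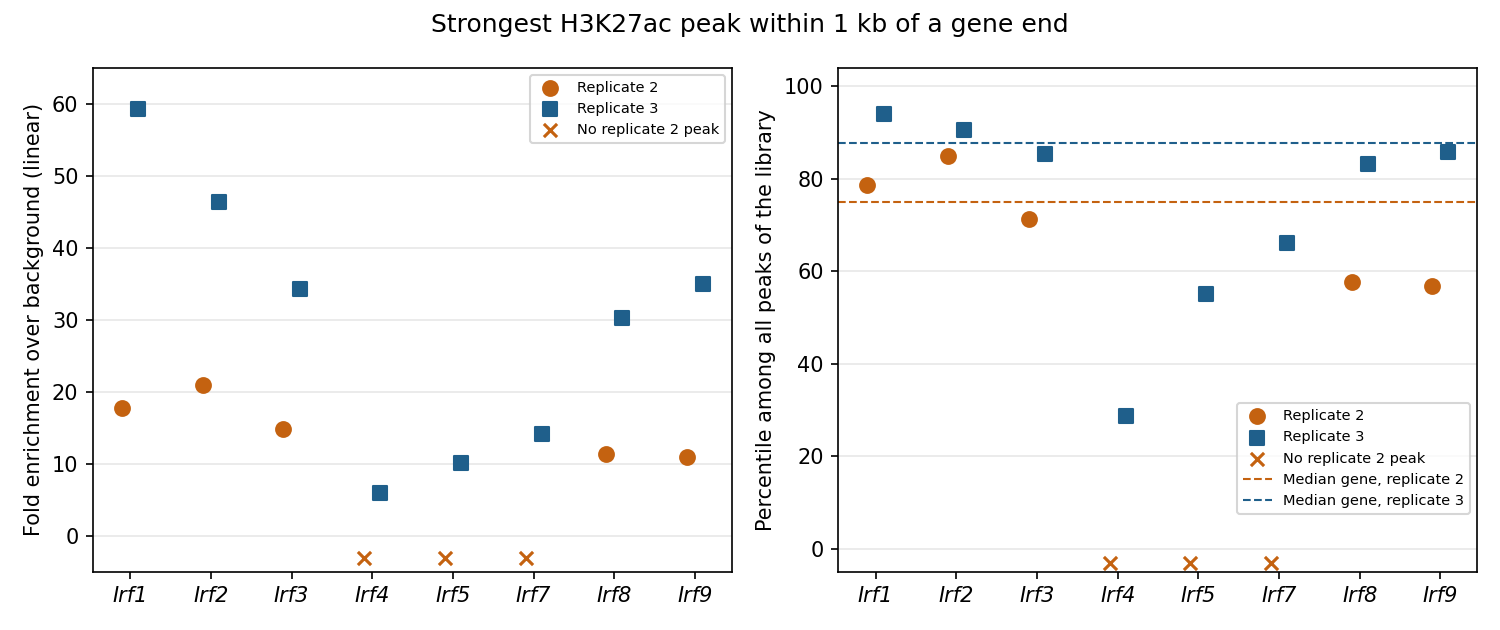
The strongest H3K27ac peak within 1 kb of an end of each IRF gene, as fold enrichment over background (left, linear axis) and as percentile among all peaks of its library (right). Circles are replicate 2, squares are replicate 3, crosses mark genes with no gene-end peak in replicate 2, and dashed lines are the medians over all genes with a gene-end peak (75.0 and 87.6); *Irf1* and *Irf2* lie highest in both libraries and *Irf4* lowest in replicate 3.

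Ordered by the strongest gene-end peak, *Irf2*, *Irf1*, *Irf3*, *Irf8*, and *Irf9* followed each other in replicate 2. In replicate 3 the order was *Irf1*, *Irf2*, *Irf9*, *Irf3*, *Irf8*, *Irf7*, *Irf5*, and *Irf4*. *Irf1* and *Irf2* stood above the other members in both libraries but changed places with each other. *Irf3* stood above *Irf8* in both, whereas *Irf9* moved from below both to above both, so its place among them could not be ordered. As a group the members were not unusually high. The median percentile was 71.3 over the 5 members with a gene-end peak in replicate 2 and 84.3 over the 8 in replicate 3, compared with 75.0 and 87.6 over all genes that had one.

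The promoters that carry these peaks are shown for *Irf1*, *Irf2*, and *Irf8*, which had both shared gene-end and shared distal regions, and for *Irf7* and *Irf4*, whose gene-end peak was found in replicate 3 only. Each window runs from 250 bases before to 50 bases after a transcription start, 5′ to 3′ on the gene's strand (RefSeq, GRCm38.p6). Capitals mark matches to 5 motifs: the gamma-activated site (GAS, TTCNNNGAA), the ISRE (GAAA, any 2 bases, GAAA), the EICE (GGAA, any 2 bases, GAAA), the κB site of NF-κB, and the TATA box (TATAAA). All were searched on both strands, except for the TATA box, which was searched on the gene's strand.
Irf1, chr11:53769764-53770063, plus strand: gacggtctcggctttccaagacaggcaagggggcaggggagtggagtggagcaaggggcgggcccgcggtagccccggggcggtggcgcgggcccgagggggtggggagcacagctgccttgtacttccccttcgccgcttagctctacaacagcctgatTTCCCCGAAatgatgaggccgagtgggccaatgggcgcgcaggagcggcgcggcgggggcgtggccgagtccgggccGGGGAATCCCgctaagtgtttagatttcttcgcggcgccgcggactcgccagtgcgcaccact
Irf2, chr8:46739495-46739794, plus strand: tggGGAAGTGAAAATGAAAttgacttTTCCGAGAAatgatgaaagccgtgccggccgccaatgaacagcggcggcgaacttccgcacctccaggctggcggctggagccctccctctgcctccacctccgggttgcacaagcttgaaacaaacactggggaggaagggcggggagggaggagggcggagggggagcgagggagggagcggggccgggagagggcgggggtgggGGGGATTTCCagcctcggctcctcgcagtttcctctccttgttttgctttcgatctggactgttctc
Irf8, chr8:120736108-120736407, plus strand: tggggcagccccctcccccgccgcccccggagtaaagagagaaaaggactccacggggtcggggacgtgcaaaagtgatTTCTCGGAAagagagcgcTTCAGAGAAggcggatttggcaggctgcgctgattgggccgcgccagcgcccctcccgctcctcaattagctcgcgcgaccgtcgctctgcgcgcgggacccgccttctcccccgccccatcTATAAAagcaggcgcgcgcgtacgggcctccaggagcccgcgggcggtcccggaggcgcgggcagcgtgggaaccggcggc
Irf7, chr7:141266375-141266674, minus strand: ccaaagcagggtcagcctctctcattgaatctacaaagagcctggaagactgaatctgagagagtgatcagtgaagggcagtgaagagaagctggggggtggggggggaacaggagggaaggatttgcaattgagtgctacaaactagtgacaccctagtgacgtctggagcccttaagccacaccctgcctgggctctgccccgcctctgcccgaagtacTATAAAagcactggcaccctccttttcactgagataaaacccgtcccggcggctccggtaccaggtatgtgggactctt
Irf4, chr13:30748983-30749282, plus strand: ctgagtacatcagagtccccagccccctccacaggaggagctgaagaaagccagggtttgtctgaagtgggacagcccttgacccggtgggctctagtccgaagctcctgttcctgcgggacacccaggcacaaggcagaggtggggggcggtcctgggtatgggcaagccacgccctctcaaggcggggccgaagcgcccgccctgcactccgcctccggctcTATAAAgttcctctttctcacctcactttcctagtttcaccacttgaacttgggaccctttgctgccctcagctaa

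A GAS match was found in the *Irf1* window at positions −90 to −82, counted from the transcription start, and a κB match at −13 to −4. In the *Irf2* window, an EICE match at −247 to −238 overlapped an ISRE match at −241 to −232, with a GAS match at −224 to −216 and a κB match at −17 to −8. The *Irf8* window held GAS matches at −171 to −163 and −153 to −145 and a TATA match at −31 to −26. All of these matches lay inside the gene-end peaks of both libraries. The windows of *Irf4* and *Irf7* held only a TATA match, at −26 to −21 and −29 to −24, inside the peak of replicate 3. No match was found in the windows of *Irf3*, *Irf5*, or *Irf9*, or at the second listed starts of *Irf1*, *Irf8*, and *Irf9*. Among 21263 promoter windows, a GAS match was present in 7.69%, an ISRE match in 3.35%, an EICE match in 2.53%, a κB match in 9.25%, and a TATA match in 8.26%. A match is a string of letters and does not show that a factor binds there.

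The windows also differed in base composition. The GC content was 69.3% at *Irf1*, 70.0% at *Irf8*, and 62.7% at *Irf2*, compared with a median of 56.3% over all windows. It was 61.0% at *Irf4* and 55.0% at *Irf7*. The ratio of observed to expected CpG was 0.912 at *Irf1*, 1.03 at *Irf8*, and 0.673 at *Irf2*, above the median of 0.567, and 0.398 at *Irf4* and 0.31 at *Irf7*, below it. Composition did not follow the calls throughout, since the *Irf9* window, at a gene with a shared region, had a ratio of 0.392, and the *Irf5* window, which held no base of any peak, had a ratio of 0.889.

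*Irf1*, the interferon-γ-inducible activator, occupies chr11:53770014-53778374 (8.36 kb, plus strand). Its gene-end region, chr11:53769661-53770748, had a fold enrichment of 17.7 in replicate 2 (percentile 78.7) and 59.3 in replicate 3 (93.9). This was the highest gene-end value of any member in replicate 3. A shared distal region lay upstream at chr11:53762514-53764340, 5674 bp from the gene, with 12.2 in replicate 2 and 30.6 in replicate 3. Replicate 3 alone had another 6 peaks in the window, with fold enrichments from 4.23 to 18.9. The highest of these, at chr11:53783203-53783879, downstream of the gene, stood at percentile 73.6 and was the strongest peak of any member that lacked a counterpart in replicate 2. Peaks of replicate 3 covered 17.8% of the *Irf1* window, the largest share of the 8, compared with 3.97% for replicate 2.

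*Irf2*, the antagonist of *Irf1*, occupies chr8:46739745-46847458 and is the longest member at 108 kb, whereas the median protein-coding gene is 17.2 kb. A longer window holds more peaks, so its counts are not comparable with those of short members. The promoter region, chr8:46739121-46740308, had a fold enrichment of 21.0 in replicate 2 (percentile 84.9) and 46.4 in replicate 3 (90.4). A second region just downstream, chr8:46740415-46741873, had 6.76 and 17.6. It counts as a gene-end region by its full span, although its replicate 2 peak lay 1098 bp from the gene's end.

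The highest acetylation at *Irf2* was not at its promoter. An intragenic region at chr8:46811062-46811955, 71.8 kb from the 5′ end, had a fold enrichment of 29.3 in replicate 2 (percentile 94.1) and 69.3 in replicate 3 (95.7). It stood above the promoter of *Irf2*, and above every other region in the 8 windows, in both libraries. The other 6 shared distal regions lay inside the gene, 29.6 to 105 kb from its 5′ end, with 5.42 to 11.3 in replicate 2 and 10.3 to 21.5 in replicate 3. Only 1.31% of all protein-coding genes had at least as many shared distal regions as *Irf2*, with no correction for gene length. The single region found in replicate 2 only was also at *Irf2* (chr8:46818679-46818828, 6.78).

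*Irf3*, which is activated by the kinase TBK1 and induces interferon-β, occupies chr7:44997648-45002848 (5.2 kb, plus strand). Its promoter region, chr7:44997116-44998039, had a fold enrichment of 14.9 in replicate 2 (percentile 71.3) and 34.2 in replicate 3 (85.4). *Bcl2l12*, on the opposite strand, has its 5′ end 10 bp before the start of *Irf3*, so the genes meet head to head and the region cannot be assigned to either. Replicate 3 also had weak peaks of 2.74 near the start, 5.54 inside the gene, and 5.21 at the 3′ end, where *Scaf1* lies 98 bp away.

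*Irf7*, the interferon-inducible partner of *Irf3* in amplifying type I interferon, occupies chr7:141263183-141266499 (3.32 kb, minus strand). Replicate 2 had no peak in its window. Replicate 3 had a peak of 705 bp across the start, chr7:141265939-141266643, with a fold enrichment of 14.1 (percentile 66.1), and a distal peak of 4.56. *Irf5*, which acts downstream of Toll-like receptors and MyD88, occupies chr6:29526130-29541869 (15.7 kb, plus strand) and likewise had no peak in replicate 2. Its gene-end peak in replicate 3, chr6:29526922-29527195, had 10.1 (percentile 55.0), with its summit 955 bp inside the gene and 460 bp from the listed start. Distal peaks of 5.73 and 6.93 were also found there in replicate 3.

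*Irf9*, which acts in the response to type I interferon, occupies chr14:55603985-55610030 (6.05 kb, plus strand). It had a single region, chr14:55603846-55604681, with a fold enrichment of 11.0 in replicate 2 (percentile 56.7) and 34.9 in replicate 3 (85.8). Its rank was therefore lowest of the 5 members in replicate 2 and above *Irf3* and *Irf8* in replicate 3. *Rnf31*, on the same strand, ends 311 bp before *Irf9* begins, so this region is also at the end of *Rnf31*. The peak of replicate 3 covered all 300 bases of the window at the second listed start of *Irf9* and 189 bases of that at the first. The peak of replicate 2 covered 0 and 35 bases of these windows, respectively.

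*Irf8*, required for the development of monocytes and dendritic cells, occupies chr8:120736358-120756694 (20.3 kb, plus strand). The promoter region, chr8:120735766-120736922, had a fold enrichment of 11.4 in replicate 2 (percentile 57.6) and 30.3 in replicate 3 (83.2). A shared region inside the gene, chr8:120739313-120740378, had 7.03 and 32.2, which was below the promoter in replicate 2 and above it in replicate 3, so these regions could not be ordered. It lay within 1 kb of a second listed start of *Irf8*, with summits 1047 bp (replicate 2) and 1120 bp (replicate 3) from that start. It counts as distal because distances were taken from the gene's ends only. Another shared region, chr8:120751998-120752442, lay 15.9 kb from the 5′ end and had 10.8 and 19.8. At least as many shared distal regions were found at 18.3% of all genes. Replicate 3 had a further 3 peaks, of 4.62 to 6.84.

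*Irf4*, which directs plasma cell and lymphocyte differentiation, occupies chr13:30749233-30766981 (17.7 kb, plus strand) and had the least acetylation of the 8. Replicate 2 had no peak in its window. Replicate 3 had a single peak of 154 bp at the start, chr13:30749132-30749285, with a fold enrichment of 5.90 (percentile 28.8). Of all genes with a gene-end peak in replicate 3, 4.63% ranked lower. *Irf4* and *Irf8*, the pair best known from blood cells, thus differed in these libraries, with 0 and 3 shared regions, respectively. That difference rests on 2 libraries and was not tested.

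**Figure D2:**
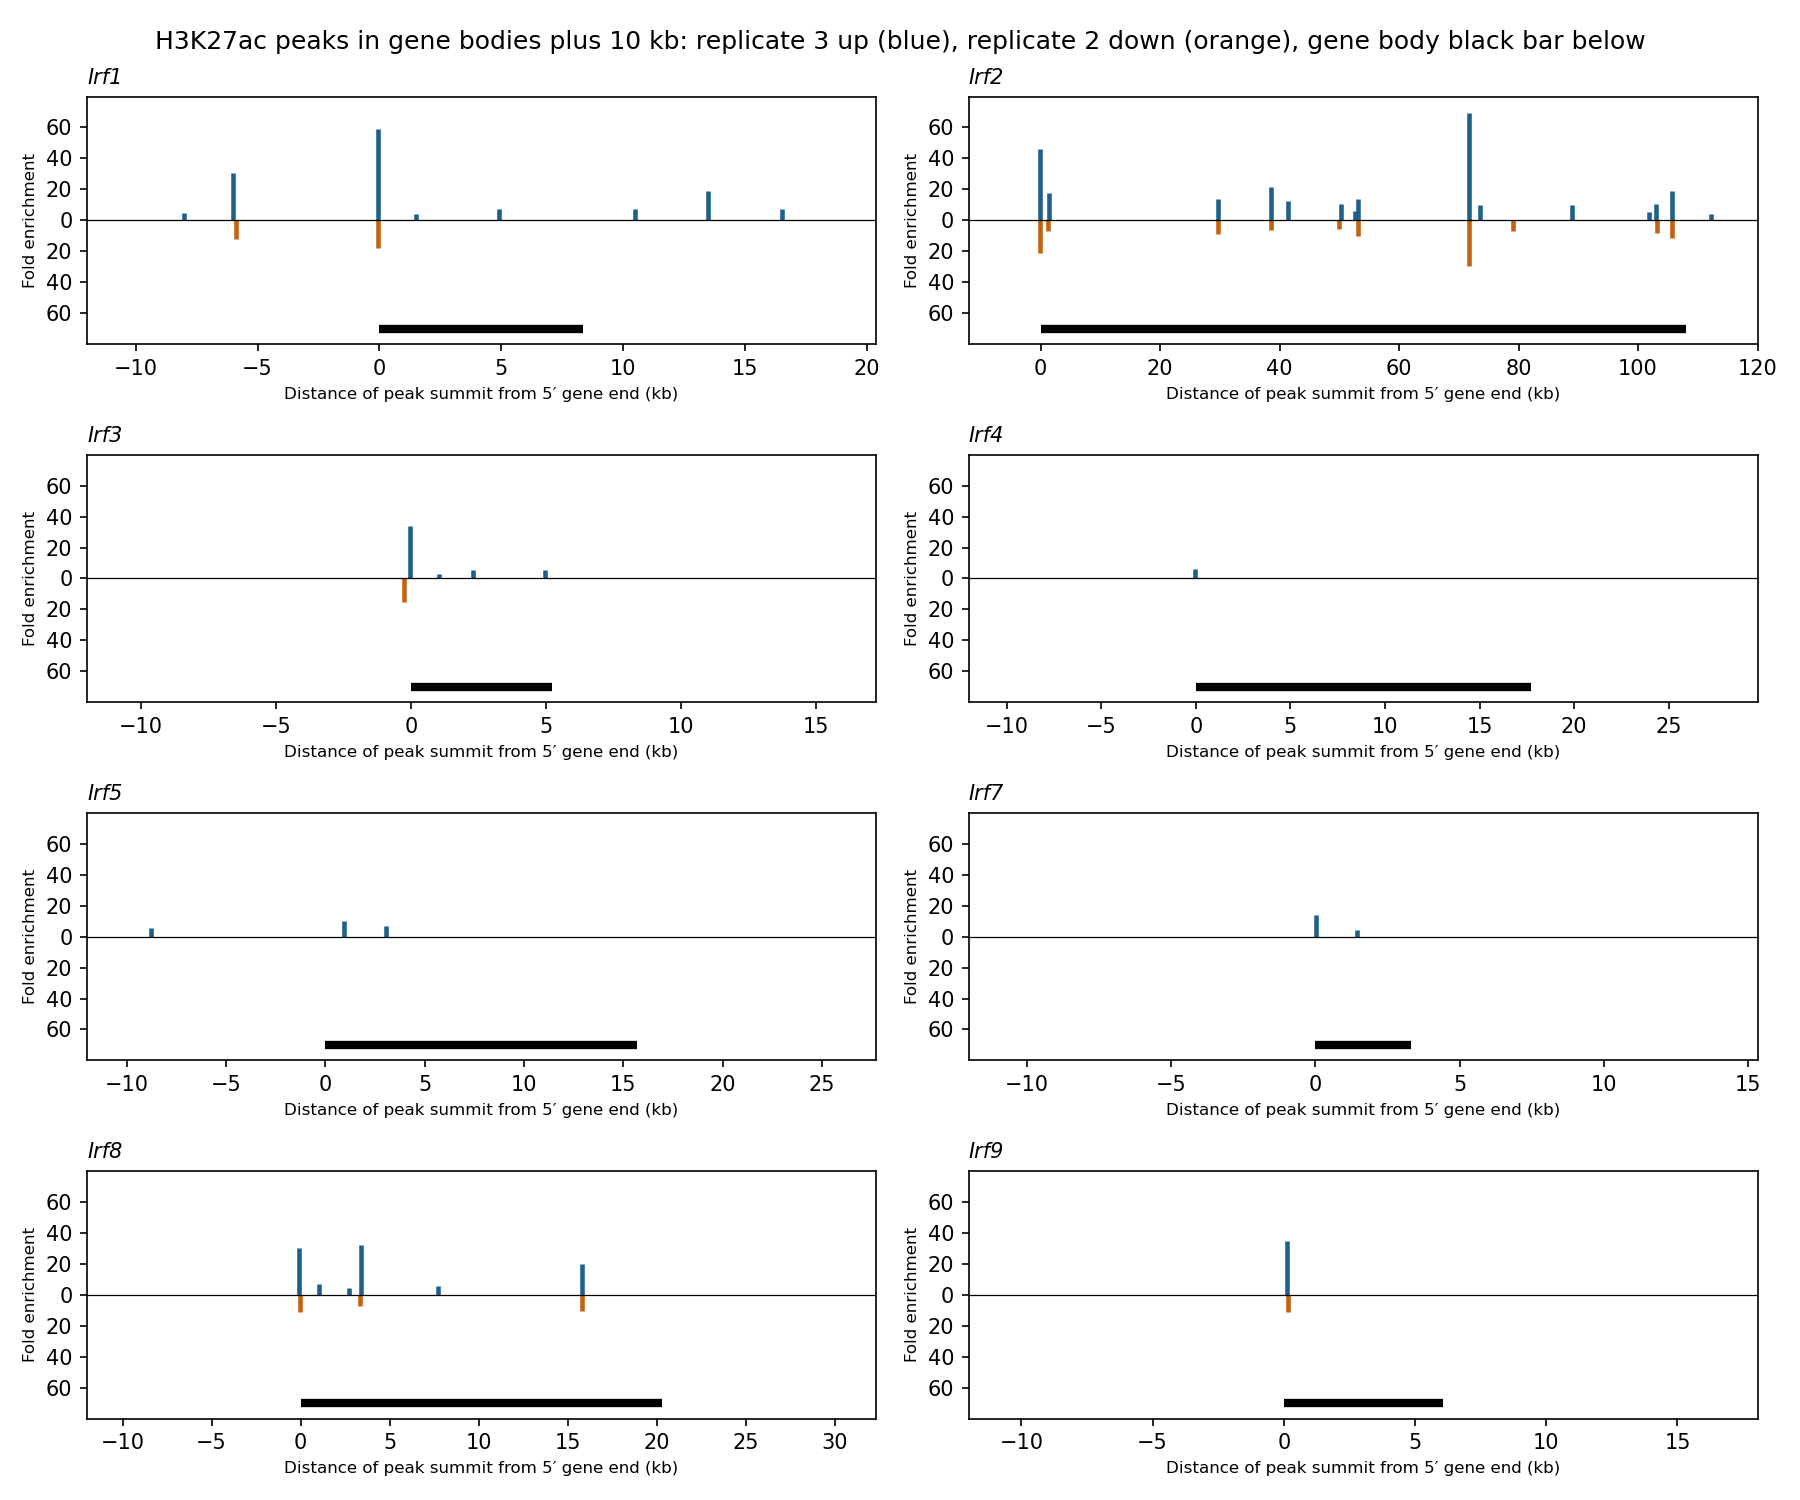
H3K27ac peaks in the window of each IRF gene, with the distance of the peak summit from the 5′ end in kb on the x axis and fold enrichment on the y axis, replicate 3 drawn upward in blue and replicate 2 downward in orange. The black bar is the gene body; *Irf2* carries peaks of both libraries along its length, with the tallest 71.8 kb inside the gene, whereas *Irf4* has 1 peak.

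Next, the absence of replicate 2 peaks at *Irf4*, *Irf5*, and *Irf7* was set beside other peaks of like strength. Among peaks of replicate 3 whose enrichment was within 10% of the *Irf4* value, 4.75% of 8064 overlapped a replicate 2 peak (95% Wilson confidence interval, 4.31% to 5.24%). The share was 22.9% of 5323 (21.8% to 24.1%) for peaks like that of *Irf5* and 48.1% of 3900 (46.5% to 49.6%) for peaks like that of *Irf7*. For peaks like the strongest gene-end peak of *Irf8* it was 97.2% of 2375, and it was higher for those like *Irf1*, *Irf2*, *Irf3*, and *Irf9*. These intervals cover the counting of peaks only. A peak as strong as that of *Irf4* thus seldom had a counterpart in the shorter list anywhere in the genome. Over all 8 windows, the median fold enrichment was 25.9 (10.3 to 69.3) for the 16 replicate 3 peaks with a counterpart in replicate 2 and 5.88 (2.74 to 18.9) for the other 24. Over the whole list, these medians were 27 and 6.2.

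**Figure D3:**
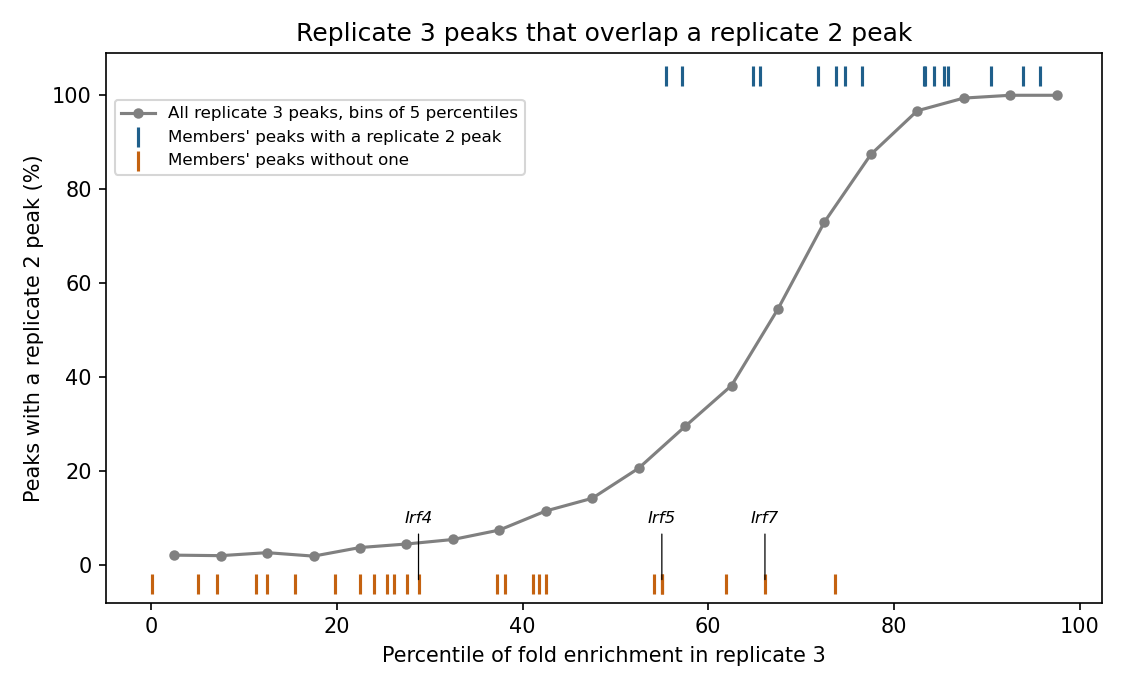
The share of all replicate 3 peaks that overlap a replicate 2 peak (y axis, percent) by percentile of fold enrichment in replicate 3 (x axis, bins of 5 percentiles). Ticks mark the IRF genes' own replicate 3 peaks, 16 with a replicate 2 peak (top, blue) and 24 without (bottom, orange); the gene-end peaks of *Irf4*, *Irf5*, and *Irf7* lie where the share is low to intermediate.

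The 16 shared regions were defined by overlapping peaks, so near positions follow in part from the definition. Regions of 1 library only are left out here, and like values over all shared regions of the genome were not computed. The summits were a median of 31.5 bp apart (1 to 287 bp), and 12 of 16 were within 100 bp. In all 16, the replicate 3 peak contained the whole replicate 2 peak and was wider, with median widths of 865 and 394 bp. The fold enrichments of the libraries had a Spearman's ρ of 0.76 and, on the log2 scale, a Pearson's r of 0.79 across these 16 regions, which share genes and libraries and are not independent. The 6 gene-end regions had median fold enrichments of 13.2 and 34.6 in replicates 2 and 3, and the 10 distal regions had 9.53 and 19.5.

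The IRFs act within a pathway of sensors, interferons, receptors, and target genes, and 5 lists of these were read in the same way. Of 15 genes for interferon receptors and JAK-STAT signalling, 14 (93.3%) had a shared gene-end region, compared with 44.1% of all genes. The highest in replicate 3 were *Jak2*, a receptor-associated kinase (26.4 in replicate 2 and 102 in replicate 3), and *Stat2*, a signal transducer of interferon receptors (32.5 and 77.2), whose region also lay at an end of *Apof*. *Ifnlr1*, a subunit of the interferon-λ receptor, had no gene-end peak. Of 16 sensors and adaptors, 12 (75.0%) had a shared region, and the highest in replicate 3 were the adaptors *Ticam1* (32.3 and 113) and *Myd88* (31.1 and 100). The *Myd88* region also lay at an end of *Acaa1a*. *Ikbke* and *Zbp1* had no gene-end peak.

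The interferon genes themselves stood at the other end. None of the 9 ligands had a shared gene-end region. *Ifne* had a gene-end peak of 6.84 in replicate 3 only, and the other 8, among them *Ifna1*, *Ifna2*, *Ifna4*, and *Ifnb1*, had none in either library. Of 14 partners and coregulators, 11 (78.6%) had a shared region, and the highest in replicate 3 were the acetyltransferase *Ep300* (18.3 and 75.5) and *Spi1*, which encodes PU.1 (12.8 and 52.1). *Batf* had no gene-end peak.

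Interferon-stimulated genes were divided. Of 28 with an entry in the gene table, 17 (60.7%) had a shared gene-end region, 8 had a gene-end peak in replicate 3 only, and 3 (*Ciita*, *Oas2*, and *Oas3*) had none. The highest in replicate 3 were the chemokine *Cxcl10* (14.8 and 62.5) and the antigen-processing genes *Tap1* and *Psmb9*, which share a region (16.3 and 54.0). The order within a list differed between the libraries. In replicate 2, for example, *Ifitm3* (17.7) stood above these genes. Neighbours also affect the counts of other listed genes. *Ifnar2* and *Il10rb* each had a shared gene-end region at an end of the other, and *Psmb8* had one at an end of *Tap1*. Those of *Cgas*, *Tbk1*, *Isg20*, *Gbp2*, *Eif2ak2*, *Etv6*, and *Irf2bp1* also included a region at an end of a neighbouring protein-coding gene. The lists are small, were chosen with earlier results known, and were not tested.

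**Figure D4:**
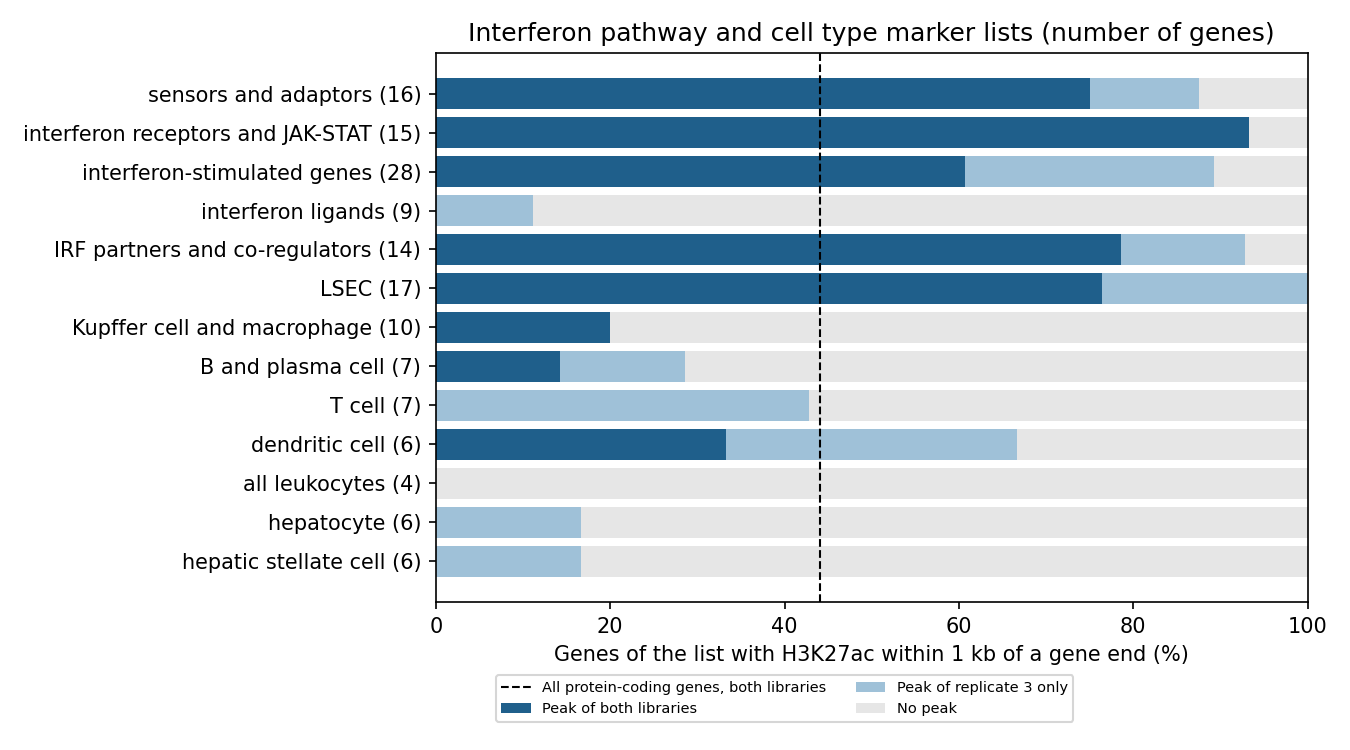
The percentage of genes in each interferon pathway list and cell type marker list with H3K27ac within 1 kb of a gene end, with the number of genes in parentheses. Dark bars are regions of both libraries, light bars are peaks of replicate 3 only, grey is no peak, and the dashed line is the share of all protein-coding genes with a region of both libraries (44.1%); interferon receptors and JAK-STAT genes reach 93.3% and interferon ligands 0.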

How the data were processed

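H3K27ac ChIP-Seq peaks of 2 LSEC libraries (replicates 2 and 3) were analysed, and the input libraries entered no calculation here. The authors deposited 1 list per library, called separately and not on pooled libraries. Among its 10 columns are the fold enrichment, computed by the authors' peak caller as a ratio of signal to background within a library. The others used were the −log10 p-value and −log10 q-value, also computed by the authors' peak caller within each library and not rescaled between libraries. The submitters' processing notes name cutadapt, BWA 0.7.17, Picard 1.67, MACS2 2.0.10, bedtools 2.27.1, and mm10. Whether the inputs served as controls for the peak calls is not given in the sources used here. The sample records describe sonicated chromatin and a ligation-based kit, whereas the paper describes tagmentation. The lists give no read counts, so depth is unknown, and a deeper or more strongly enriched library yields more peaks.

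Starts were converted to positions counted from 1. Genes and promoter windows came from RefSeq GRCm38.p6, the same assembly as mm10, and all 8 members matched by symbol. Peaks of both libraries that overlapped by at least 1 bp were merged into regions, and regions with a peak of each were called shared. Counts per library used each peak's own position, and regions were classed by their full span. Percentiles are ranks of fold enrichment within a library. The tables give no exons, so exons, introns, and UTRs were not told apart. Counting was tested on simulated data. No test between groups was possible with 1 condition. The members and lists were chosen with earlier results of these data known. In each pathway list, the 2 genes with the highest replicate 3 enrichment among those with a shared gene-end region, and up to 4 without a gene-end peak, were named. Neighbouring protein-coding genes with an end within 1 kb of a region in a member's window were named, as were markers of other cells with a shared region. Ends of noncoding genes were not searched. *Mx1* and *Mx2* had no protein-coding entry and were not counted. The alternatives tried were a stricter q-value (1e-05), equal numbers of peaks, a reciprocal overlap of 50%, and each library alone. Other distances, windows, gene ends, and rankings, and regions away from other protein-coding genes, were also tried. Calculations were run in Python 3.11.15 with pandas 2.3.3 and numpy 2.4.6, intervals with scipy 1.17.1, and figures with matplotlib 3.10.9.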

Additional observations from a re-analysis of the deposited data

How the results depend on the processing

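Of 40 alternatives over the results of all members, 28 stayed within the limits set (1.5 times the count, or 9.2 percentiles, the SD between the library medians) and 12 moved. With a reciprocal overlap of 50%, members with a shared gene-end region fell from 5 to 1, shared distal regions from 10 to 4, and all shared regions from 16 to 5, because the peaks of replicate 3 were wider. The 1 member left with a gene-end region was *Irf3*, whose region also lay at the 5′ end of *Bcl2l12* and could not be assigned to either gene. With windows of 50 kb, members with a shared distal region numbered 6 in place of 3, shared distal regions 28, and all shared regions 34. The 3 shared regions that this added at *Irf3* all lay inside other protein-coding genes. Shares over all genes were not computed for the 50% overlap or the 50 kb windows, so those given above do not apply to these counts. With 1 library left out, regions needed only the remaining library. The counts then ranged from 5 without replicate 3 to 8 without replicate 2 for members with a gene-end region, from 3 to 6 for members with a distal region, from 12 to 28 for distal regions, and from 17 to 40 for all regions. Ranked only among peaks within 1 kb of a coding gene end, the median percentile was 55.3 in replicate 2 and 60.4 in replicate 3. The median over all genes was not computed for this ranking, so these values do not place the members against other genes. Of 72 single-member values, 18 moved. Without regions near another protein-coding gene's end, *Irf3* and *Irf9* had 0 shared regions. No paired analysis was possible because both H3K27ac libraries belong to 1 condition and the inputs with the same numbers were not analysed here.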

Other observations

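Beyond the 10 kb windows, out to 50 kb, further shared regions that were neither inside another protein-coding gene nor within 1 kb of an end of it were found at *Irf1* (3), *Irf2* (2), *Irf8* (2), *Irf7* (1), and *Irf9* (1), and none were found at *Irf3*, *Irf4*, or *Irf5*. Upstream of *Irf8*, a region at chr8:120699600-120700095, at −36.5 kb from the 5′ end, had a fold enrichment of 14.2 in replicate 2 (percentile 69.2) and 35.8 in replicate 3 (86.2). These values were above those of the *Irf8* promoter region, 11.4 and 30.3, in both libraries. A second upstream region, chr8:120715926-120716629, at −20.1 kb from it, had 6.71 and 27. At *Irf1*, the regions lay at chr11:53736979-53737439 (5.39 and 16.6), chr11:53796576-53797192 (7.32 and 21.5), and chr11:53818628-53819325 (7.46 and 22.8), all below its promoter. Downstream of *Irf2*, they lay at chr8:46881474-46882279 (10.2 and 20.2) and chr8:46888582-46888955 (7.2 and 10.7). Distance does not assign a region to a gene, and these regions were described after their values had been seen.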
